A study of Mus musculus with 2 samples.

Results

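The RB pathway and its inhibitors of cyclin-dependent kinases were followed as 10 genes, of 32285 measured, in single cells of mouse pancreatic tumors. The genes were taken by symbol: the pocket protein genes Rb1, Rbl1 and Rbl2, the transcription factor genes E2f1 and E2f2, the cyclin genes Ccne1 and Ccnd1, and the inhibitor genes Cdkn2a, Cdkn2c and Cdkn1b. All 10 were found in both count matrices. There were 2 groups with 1 library each, both from mice aged 6 weeks. EL1 mice (strain EL1-Luc/EL1-Tag, made on FVB/N) carry the SV40 large T antigen and firefly luciferase, each under the promoter of pancreatic elastase I, which is active in acinar cells. WTg mice (EL1-Luc/EL1-Tag x CAG-Mettl3) carry these transgenes too, and in addition the open reading frame of Mettl3, an RNA methyltransferase, under the ubiquitous CAG promoter. The Mettl3 line was made in C57BL/6 mice, so strain background and the transgene cannot be told apart. The number and the sex of the mice behind each library are not stated, and the T antigen transcript is not among the measured genes.

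RB and its relatives p107 (Rbl1) and p130 (Rbl2) hold E2F transcription factors inactive in resting cells. Cyclin D with CDK4 or CDK6, and then cyclin E with CDK2, phosphorylate the pocket proteins, which frees E2F to switch on the genes of DNA replication. The INK4 inhibitors, among them p16INK4a from Cdkn2a and p18INK4c from Cdkn2c, block CDK4 and CDK6, while p27KIP1 from Cdkn1b acts mainly on CDK2. The SV40 large T antigen binds the pocket proteins and separates them from E2F, which is why this oncogene has been used to study the pathway.

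Barcodes with at least 500 genes, at least 1000 unique molecular identifiers (UMIs, each counting 1 captured RNA molecule) and at most 20% mitochondrial UMIs were kept, which left 1113 cells of EL1 with 37961287 UMIs and 905 cells of WTg with 33007683 UMIs. The libraries shared 15 barcodes before this filter and 0 after it. Clusters with epithelial, acinar or neuroendocrine markers formed the tumor cell class, with 973 cells of EL1 and 747 of WTg. All 9 epithelial and all 16 acinar markers had UMIs in it in both libraries. Of 11 neuroendocrine markers, 10 had UMIs in it in EL1 and 11 in WTg. The class was named from these lists, so this does not test its identity, and all 10 macrophage markers had UMIs in it too. The tumor cell class may hold acinar cells that are not malignant, since the transgene was not measured. The macrophage-like class, which served as the untransformed reference, held 22 cells of EL1 with 302564 UMIs and 31 cells of WTg with 769724 UMIs, and all 10 macrophage markers had UMIs in both. Its small size limits every comparison with it. The summed epithelial markers in macrophage-like cells stood at 3.50% of their level in tumor cells of EL1 and at 0.696% in WTg, and the part of stray tumor RNA in the results was not tested. Mettl3 was at 15.1 CPM (UMIs of a gene scaled to a common total in each group of cells) in EL1 tumor cells and at 67.3 CPM in WTg tumor cells, in the direction of the labels. No value has a replicate, so nothing was tested. All intervals are exact, at 95%, and cover counting error only.

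E2F factors are known for a short GC-rich binding sequence, and the promoters of the genes under study were searched for its letters. RefSeq windows (GRCm38.p6, 250 bases before to 50 after a start) were at hand for 8 of the 10 genes. The 4 spellings of the sequence, TTTCCCGC, TTTCGCGC, TTTGCCGC and TTTGGCGC, were read on both strands. At least 1 of them stood in the windows of 3 of these 8 genes, or 37.5%, against 2.6% of the 27025 genes with a window. They are shown because these 3 genes stand here for the pocket proteins, the E2F factors and the inhibitors, though Cdkn2a also codes for another product, p19ARF. The capitals mark the match on the strand of the gene.
Rbl1, chr2:157204534-157204563, minus strand: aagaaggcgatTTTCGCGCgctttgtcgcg
Cdkn2a, chr4:89294700-89294729, minus strand: ctctgggaagcTTTCCCGCgcgactgggga
E2f2, chr4:136172294-136172323, plus strand: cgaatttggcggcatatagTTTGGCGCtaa
The match began 18 bases before the start in Rbl1 and 99 bases before the upstream of the 2 starts of Cdkn2a. The window of the downstream start of Cdkn2a held no match, and which product each start makes was not read here. In E2f2 the match began 39 bases after the upstream of the 2 starts with a window. These are RefSeq starts, which can differ from the gene bounds of GENCODE M21 given below. The E2f2 gene begins there at 136172394, after the match. The E2f1 window, which held no match, ends at 154569676, short of its bound of 154569892. Among genes known as E2F targets, 11 of 18 with a window held the letters. A match describes the letters and does not show that a factor binds there.

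Of the inhibitors among the 10 genes, Cdkn2a stood out in tumor cells over macrophage-like cells in both libraries. It lies on chromosome 4, from 89274471 to 89294653 on the minus strand (GRCm38, GENCODE M21), and codes for p16INK4a and, in another reading frame, p19ARF. Its 2 coding transcripts shared 575 exon bases, or 67.5% of the shorter and 64.2% of the longer, so the 3′ counts do not separate these products. In EL1 it had 8476 UMIs in tumor cells, or 231 CPM (226 to 236), and 2 UMIs in macrophage-like cells, both in 1 cell. The log2 ratio of tumor over macrophage-like cells was 5.13 (3.27 to 8.17). WTg tumor cells held 2720 UMIs, at a level of 87.1 CPM (83.8 to 90.4), with 0 UMIs in the 31 macrophage-like cells. Against a floor of 3 UMIs in that class, 3.90 CPM, the log2 ratio was at least 4.48. The lower end of its exact interval was 4.18. The 2 UMIs of EL1 put the macrophage-like level at 2.86% of the tumor level, beside the 3.50% of the epithelial markers. After each cell was thinned to 5000 UMIs, 609 of 930 EL1 tumor cells (65.5%, 62.3 to 68.5) and 196 of 683 WTg tumor cells (28.7%, 25.3 to 32.2) had a Cdkn2a UMI. Among thinned macrophage-like cells 1 of 14 and 0 of 22 had one, where 0 of 22 allows up to 13.6% by the limit of 3 counts. Without thinning the shares in tumor cells were 93.4% and 64.1%. A level like that of tumor cells was also read outside the class. In EL1 an unnamed cluster of 16 cells with 4 raised fibroblast markers held 127 Cdkn2a UMIs in 13 cells, or 248 CPM (207 to 295). In WTg an unnamed cluster of 8 cells with raised endothelial markers held 19 in 3 cells, or 56.3 CPM (33.9 to 87.9). The other unnamed clusters were below the tumor level of their library. The part of stray tumor RNA there was not tested.

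Cdkn2c (chromosome 4, 109660876 to 109667189, minus strand) was the other inhibitor among the 10 genes above 2-fold in both libraries. In EL1 its level was 115 CPM (112 to 119) in tumor cells and 23.1 CPM (9.30 to 47.7, 7 UMIs) in macrophage-like cells, a log2 ratio of 2.31 (1.27 to 3.63). Tumor cells of WTg had 103 CPM (99.1 to 106), against 18.2 CPM (9.94 to 30.5, 14 UMIs) in the other class, a log2 ratio of 2.50 (1.75 to 3.37). The intervals of the levels in the classes did not overlap in either library. After thinning to 5000 UMIs, 373 of 930 EL1 tumor cells (40.1%, 36.9 to 43.3) and 226 of 683 WTg tumor cells (33.1%, 29.6 to 36.8) had a Cdkn2c UMI, against 1 of 14 and 1 of 22 macrophage-like cells. Cdkn1b (chromosome 6, 134920401 to 134925513, plus strand) did not follow the INK4 genes. Its log2 ratio was -0.41 (-1.19 to 0.51) in EL1 and -0.36 (-0.92 to 0.27) in WTg, and both intervals held 0.

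Ccnd1, the gene of cyclin D1, was nearly absent from tumor cells. It lies on chromosome 7, from 144929931 to 144939925 on the minus strand. Of 973 tumor cells of EL1, 11 held 12 UMIs in all, or 0.327 CPM (0.169 to 0.572), beside 3 UMIs in 3 of 22 macrophage-like cells, or 9.92 CPM (2.04 to 29). Of 747 tumor cells of WTg, 5 held 1 UMI each, 0.160 CPM (0.0520 to 0.374), beside 29 UMIs in 9 of 31 macrophage-like cells, or 37.7 CPM (25.2 to 54.1). Tumor over macrophage-like cells gave a log2 ratio of -4.92 (-6.81 to -2.46) in EL1 and -7.88 (-9.61 to -6.49) in WTg. With cells classed by their own markers the WTg value was -2.33. Other cells of these libraries showed that the gene could be captured. A cluster of 8 WTg cells with 6 raised endothelial markers, left unnamed, held 137 Ccnd1 UMIs in 7 of its cells, or 406 CPM (341 to 480). Ccnd1 shares exon bases with a gene on the other strand, and the strand setting of the counting is not given in the sources used here.

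The partners of cyclin D1 were read from a list of 15 cyclins, kinases, inhibitors and turnover genes. Cdk6, a kinase of cyclin D, had 1 UMI in EL1 tumor cells and 6 in WTg tumor cells, against 16 and 37 in the macrophage-like cells. Its log2 ratio was -10.92 (-16.31 to -8.23) in EL1 and -7.97 (-9.50 to -6.71) in WTg. Ccnd2 (cyclin D2) had 3 and 7 UMIs in tumor cells and 5 and 12 in macrophage-like cells. In EL1 its sum of 8 UMIs missed the minimum of 10. Cyclins D1 and D2 were thus almost without UMIs in tumor cells, while Ccnd3 (cyclin D3) was at 18.6 CPM in EL1 and 16.5 CPM in WTg. For Ccnd3 the log2 ratio was -0.09 (-1.22 to 1.36) and -0.33 (-1.05 to 0.48). Cdk4, the other kinase of cyclin D, was at 170 CPM and 126 CPM in tumor cells, with log2 ratios of 1.51 (0.85 to 2.27) and 0.57 (0.22 to 0.95).

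**Figure D1:**
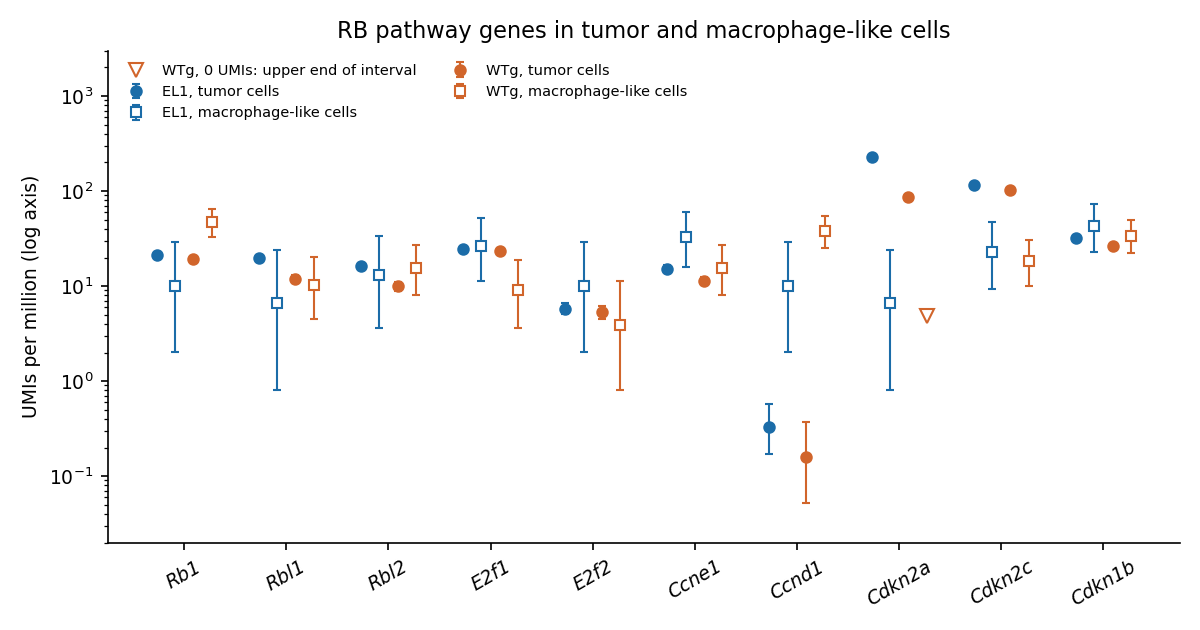
Level of each gene in CPM (log axis) in tumor cells (filled circles) and macrophage-like cells (open squares) of EL1 (blue) and WTg (orange), with exact Poisson intervals of counting error. Cdkn2a and Cdkn2c lie above their macrophage-like levels and Ccnd1 below them in both libraries; the open triangle is the upper end of the interval for 0 UMIs.

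Cyclin E1 took another course than cyclin D1. Ccne1 (chromosome 7, 38097984 to 38107534, minus strand) was at 15.2 CPM (14.0 to 16.5) in EL1 tumor cells and 33.1 CPM (15.8 to 60.8) in macrophage-like cells, where all 10 UMIs came from 1 cell. In WTg the levels were 11.3 CPM (10.2 to 12.5) and 15.6 CPM (8.06 to 27.2), with 12 UMIs in 2 macrophage-like cells. The log2 ratio was -1.12 (-2.01 to -0.05) in EL1, past 2-fold on the UMIs of that 1 cell, and -0.46 (-1.29 to 0.50) in WTg. With each cell weighted equally the EL1 value turned to 0.13 and the WTg value to 0.89, and with cells classed by their own markers the WTg value was 0.35.

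The pocket protein genes had no common direction between tumor and macrophage-like cells. Rb1 (chromosome 14, 73183673 to 73325822, minus strand) was at 21.2 CPM (19.8 to 22.8) in EL1 tumor cells and 19.1 CPM (17.6 to 20.7) in WTg tumor cells, so its RNA was present in both. Macrophage-like cells held 3 Rb1 UMIs in EL1, or 9.92 CPM, while those of WTg held 36, or 46.8 CPM (32.8 to 64.7). On the log2 scale tumor over macrophage-like cells came to 1.10 (-0.45 to 3.38) in EL1 and -1.29 (-1.78 to -0.77) in WTg. The EL1 ratio rests on 3 UMIs, its interval holds 0, and it turned to -0.18 when cells were classed by markers of each cell and to -0.11 with cells weighted equally. Rbl1 (chromosome 2, 157145893 to 157204534, minus strand) had log2 ratios of 1.58 (-0.28 to 4.63) and 0.20 (-0.80 to 1.42), on 2 and 8 macrophage-like UMIs. Those of Rbl2 (chromosome 8, 91070057 to 91123844, plus strand) were 0.29 (-1.07 to 2.17) and -0.65 (-1.48 to 0.32). Rb1 and Rbl2 each share exon bases with 2 genes on the other strand.

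The E2F genes were measured on few macrophage-like UMIs as well. E2f1 (chromosome 2, 154559407 to 154569892, minus strand) had 24.5 CPM and 23.3 CPM in tumor cells, with 8 and 7 UMIs in macrophage-like cells. Its log2 ratio was -0.11 (-1.10 to 1.11) in EL1 and 1.36 (0.31 to 2.68) in WTg. E2f2 (chromosome 4, 136172394 to 136196057, plus strand) was at 5.78 CPM and 5.28 CPM, with 3 macrophage-like UMIs in each library. The log2 ratio of E2f2 was -0.78 (-2.34 to 1.51) and 0.44 (-1.13 to 2.73).

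In counts, 4 of the 10 genes were at least 2-fold higher in EL1 tumor cells, against 16.6% of the 14577 genes with at least 10 UMIs, and 2 were at least 2-fold lower, against 18.0%. In WTg 3 of 10 were higher, against 20.2% of 14442 genes, and 2 were lower, against 20.5%. Among genes with at least 50 UMIs, 20.1% were higher and 16.9% lower in EL1, and 24.6% and 18.9% in WTg. Only Cdkn2a and Cdkn2c were higher in both libraries, 2 of 10 against a background of 10.3%, and only Ccnd1 was lower in both, 1 of 10 against 13.5%. The median log2 ratio of the members was 0.09 in EL1 and -0.36 in WTg over those with a UMI in both classes, beside 0.02 and -0.09 for all genes. With Cdkn2a at its bound the WTg median was -0.08.

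Other genes of the pathway were counted from 3 lists, which had no test. Of 14 genes of the RB and E2F machinery, 4 were at least 2-fold higher in tumor cells in both libraries and 0 lower, where all genes gave 10.3% higher and 13.5% lower. They were Tfdp2, an E2F partner, with log2 ratios of 2.3 (0.94 to 4.18) and 3.0 (1.64 to 4.87), and Lin54, Lin9 and Lin52, parts of the MuvB core of the DREAM complex. The ratios of these 3 ran from 1.21 to 2.48 on 1 to 8 macrophage-like UMIs, and in EL1 the interval of each held 0. Of the 15 cyclins, kinases, inhibitors and turnover genes, 6 were higher and 1, Cdk6, lower. Cdc25a, a phosphatase that activates CDK2, had ratios of 3.68 (1.2 to 8.99) and 3.30 (1.95 to 5.18), on 1 and 4 macrophage-like UMIs. Ccna2 (cyclin A2) had 1.66 (0.44 to 3.29) and 2.84 (1.62 to 4.47). Cdkn1c, the gene of p57KIP2, had 0 macrophage-like UMIs in both and ratios of at least 1.55 and at least 3.89. Cdkn2d, an inhibitor gene of the INK4 family, had 2.01 in EL1 and 1.40 in WTg. Of 20 genes known as E2F targets, 5 were higher and 1 lower. Mcm4 and Mcm6, of the replicative helicase, and Tyms, which makes thymidylate, had ratios between 1.48 and 2.25. Chek1, a checkpoint kinase gene, had at least 1.07 in EL1, with 0 macrophage-like UMIs, and 3.92 (1.43 to 9.22) in WTg on 1 UMI. Tk1, the salvage enzyme thymidine kinase, went the other way, with -3.10 (-3.77 to -2.34) in EL1 and -3.35 (-3.82 to -2.86) in WTg. Tk1 had 269 and 187 UMIs in tumor cells, or 7.34 CPM and 5.99 CPM, against 62.8 CPM and 61.1 CPM in macrophage-like cells.

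Tumor cells were next divided by cycling state. A cell counted as cycling with at least 1 UMI of Top2a, the DNA topoisomerase of dividing cells, or Mki67, which codes for the Ki-67 antigen. This held for 516 of 973 EL1 tumor cells, 53.0% (49.8 to 56.2), and for 423 of 747 WTg tumor cells, 56.6% (53.0 to 60.2). Among macrophage-like cells the shares were 18.2% (4 of 22) and 22.6% (7 of 31). Of the lymphocytes, 0 of 10 in EL1 and 0 of 20 in WTg had such a UMI, which by the limit of 3 counts allows shares of up to 30% and 15%. Depth enters this call, since cycling cells had a median of 39569 UMIs in EL1 against 22210 in non-cycling cells, and 44954 against 30360 in WTg. After thinning to 5000 UMIs the shares were 28.7% (25.8 to 31.7) and 33.2% (29.7 to 36.9). The same cells were compared by CPM, which divides by depth.

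The genes of cyclin E1 and the E2F factors had the 3 ratios past 2-fold between states. Ccne1 was at 21.5 CPM in cycling and 2.48 CPM in non-cycling cells of EL1, with 528 and 30 UMIs, and the log2 ratio was 3.12 (2.59 to 3.70). In WTg 337 and 16 UMIs gave 15.8 CPM and 1.61 CPM and a log2 ratio of 3.29 (2.57 to 4.12). E2f2 followed with 2.70 (1.94 to 3.56) in EL1, on 197 and 15 UMIs, and 2.33 (1.54 to 3.23) in WTg, on 151 and 14 UMIs. For E2f1 the values were 1.35 (1.09 to 1.61) and 1.34 (1.05 to 1.65). These 3 genes, of 10, were at least 2-fold higher in cycling cells in each library, where 8.02% of 14286 genes in EL1 and 7.74% of 14029 genes in WTg were. In both libraries together the background was 3.8%. No member was at least 2-fold lower, against 1.84% and 1.62%. When the state was read after thinning, E2f1 fell short of 2-fold, with 0.97 in EL1 and 0.74 in WTg. Ccne1 then stood at 2.08 in EL1 and 3.19 in WTg, and E2f2 at 1.97 and 2.56. Rb1 reached 1.05 in WTg. In cycling cells with only 1 to 4 UMIs of Top2a and Mki67 together, the ratios of the 3 genes to non-cycling cells were lower. Ccne1 was at 1.71 (1.09 to 2.36) in EL1 and 1.2 (0.31 to 2.15) in WTg. E2f2 was at 1.69 (0.81 to 2.65) in EL1. In WTg E2f2 fell short of 2-fold, at 0.72 (-0.31 to 1.80) on 22 and 14 UMIs. E2f1 was at 1.05 in each library.

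**Figure D2:**
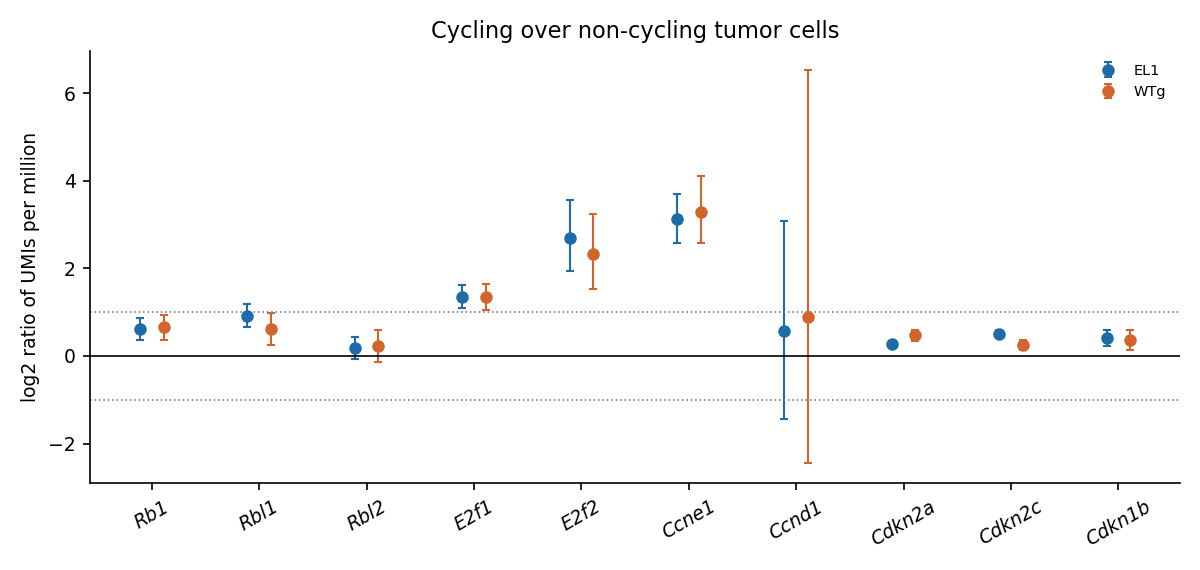
The log2 ratio of cycling over non-cycling tumor cells for each gene in EL1 (blue) and WTg (orange), with exact intervals of counting error; dotted lines mark 2-fold. Ccne1, E2f2 and E2f1 lie above the upper line in both libraries, and the wide intervals of Ccnd1 come from 12 and 5 UMIs.

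The pocket proteins and inhibitors had smaller ratios between states. Rb1 was higher in cycling cells by a log2 ratio of 0.61 (0.37 to 0.86) in EL1 and 0.65 (0.38 to 0.94) in WTg, and Rbl1 by 0.92 (0.66 to 1.19) and 0.61 (0.26 to 0.97). For Rbl2, known as the pocket protein of resting cells, the interval held 0 in both, with 0.18 (-0.07 to 0.44) and 0.23 (-0.13 to 0.60). Cdkn2a had ratios of 0.27 (0.20 to 0.34) and 0.47 (0.34 to 0.60). For Cdkn2c they were 0.50 (0.40 to 0.60) and 0.25 (0.14 to 0.36), and the WTg value was 0.12 under either other scaling. Cdkn1b had 0.41 (0.22 to 0.60) and 0.36 (0.13 to 0.58), and the WTg value turned to -0.08 without the cluster led by histone and mitotic genes described below. Cycling cells with only 1 to 4 UMIs of Top2a and Mki67 together also gave these genes lower ratios to non-cycling cells. Those of Cdkn2a were 0.06 (-0.02 to 0.14) in EL1 and -0.01 (-0.17 to 0.14) in WTg. For Cdkn2c they were 0.06 (-0.06 to 0.19) and -0.36 (-0.51 to -0.22). The intervals of Rb1, Rbl2 and Cdkn1b held 0 in both libraries, while that of Rbl1 lay above 0 in both. Ccnd1 stayed at 12 and 5 UMIs in all tumor cells and gave no usable ratio. The median of all genes was 0.08 in EL1 and 0.13 in WTg, beside 0.59 and 0.61 for the members that passed 10 UMIs.

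A second division was made within the cycling cells. Cells with a UMI of Plk1, Cdc20 or Aurka, genes of mitosis, were set apart from the other cycling cells. Non-cycling cells were not divided this way, though 31 of 457 in EL1 and 42 of 324 in WTg held a Cdc20 UMI. E2f1 peaked in the cycling cells without a mitotic UMI, at 33.2 CPM in EL1 and 38.6 CPM in WTg. In those with one it was at 28.2 CPM and 20.1 CPM, and in non-cycling cells at 12.1 CPM and 11.4 CPM. The log2 ratio of cells with over cells without a mitotic UMI was -0.24 (-0.45 to -0.03) in EL1 and -0.94 (-1.18 to -0.70) in WTg. Cdkn1b and Cdkn2c were instead highest in the cells with a mitotic UMI. This division was not made within clusters, whose Cdkn2c and Cdkn1b levels differed, as given below, and the part of clusters was not tested. In cycling cells without a mitotic UMI, the log2 ratio to non-cycling cells was -0.12 (-0.35 to 0.12) and -0.04 (-0.31 to 0.24) for Cdkn1b. For Cdkn2c it was 0.19 (0.07 to 0.31) in EL1 and -0.24 (-0.38 to -0.10) in WTg, so its direction differed between the libraries. In cells with a mitotic UMI Cdkn1b reached 45.5 CPM for EL1 and 34.5 CPM for WTg, a ratio to the other cycling cells of 0.89 (0.69 to 1.10) and 0.67 (0.43 to 0.92). For Cdkn2c this ratio was 0.55 (0.45 to 0.66) and 0.83 (0.70 to 0.95). Rbl1 had 0.37 (0.12 to 0.61) in EL1 and 0.38 (0.03 to 0.73) in WTg. Ccne1, a gene of entry into replication, had 0.44 (0.19 to 0.70) and 0.12 (-0.19 to 0.44). For Rb1, Rbl2 and E2f2 the interval held 0 in both libraries. Cdkn2a climbed in steps, from 203 to 225 to 264 CPM in EL1 and from 69.0 to 78.8 to 111 CPM in WTg over non-cycling cells, cycling cells without and cycling cells with a mitotic UMI. Cells with a mitotic UMI were also the deepest, with medians of 47427 UMIs in EL1 and 55118 in WTg, against 33728 and 40182 in the other cycling cells, and the part of depth in these orders was not tested.

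**Figure D3:**
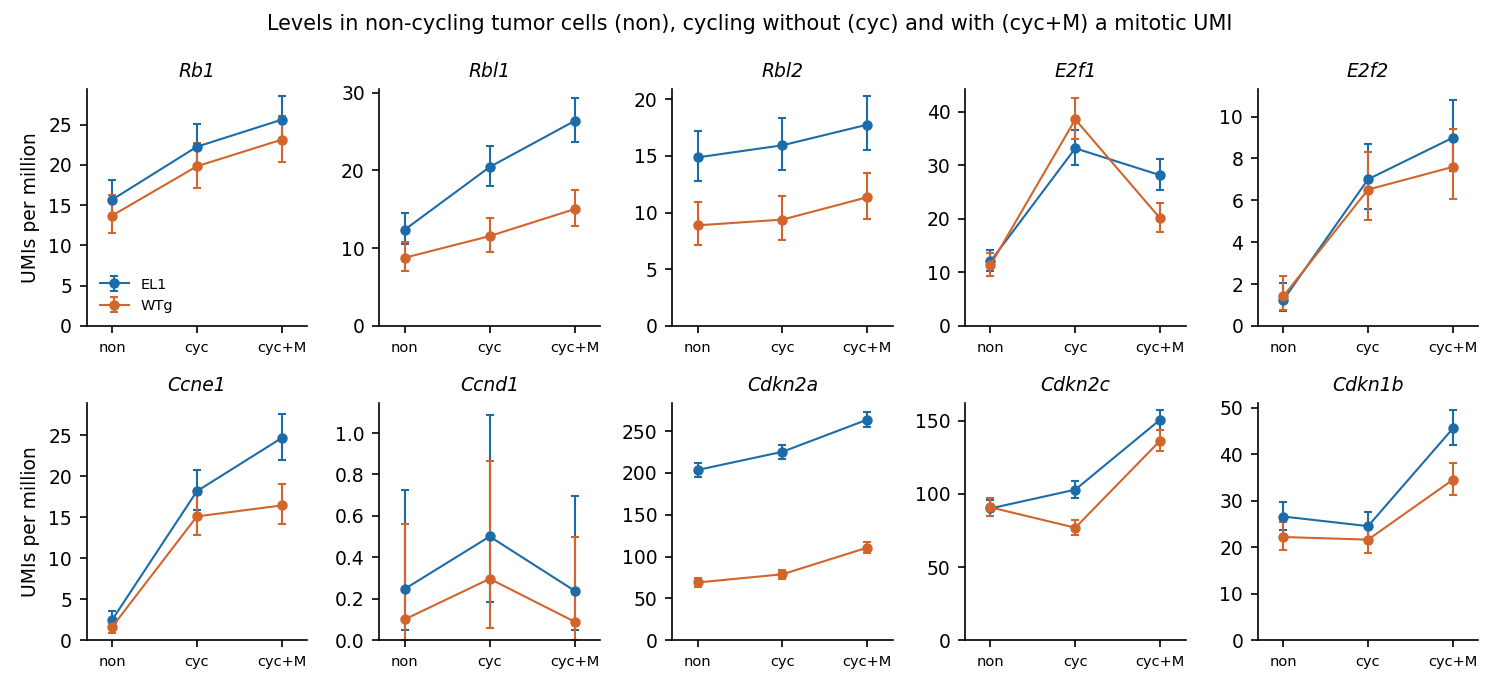
CPM of each gene in non-cycling tumor cells (non), cycling cells without a UMI of Plk1, Cdc20 or Aurka (cyc) and cycling cells with one (cyc+M), for EL1 (blue) and WTg (orange), with exact Poisson intervals. E2f1 is highest in the middle state, while Cdkn1b and Cdkn2c are highest in the last; the vertical axes start at 0 and differ between genes.

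The same division in the 3 lists showed how far the rest of the pathway moved with state. Of 14 genes of the RB and E2F machinery, 3 were at least 2-fold higher in cycling cells of both libraries, beside 3.8% of all genes. These were Mybl2 (log2 ratios 3.38 and 2.72), which joins the MuvB core in proliferating cells, and the repressor E2F genes E2f7 (2.91 and 2.60) and E2f8 (2.46 and 2.62). Of the 15 cyclins, kinases, inhibitors and turnover genes 5 were higher, led by Ccna2 with 6.42 (5.57 to 7.42) and 6.40 (5.41 to 7.61). Cdkn2d, an INK4 inhibitor like Cdkn2c, was among them with 2.16 (1.86 to 2.48) and 2.59 (2.16 to 3.06). Of 20 genes known as E2F targets 9 were higher in both, with Cdk1 at 3.64 and 3.8, Rrm2 at 3.35 in each library and Tk1 at 2.62 and 2.22. In none of the lists was a gene at least 2-fold lower in both libraries, as 0.125% of all genes were. Cdk4 differed little, with 0.21 (0.13 to 0.29) and 0.19 (0.09 to 0.30).

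Tumor clusters were then examined, since the cycling ratio over all tumor cells mixes clusters. The 10 genes, the 3 lists and the cycling genes had been left out of the clustering, yet clusters led by histone and mitotic genes still formed. In 6 clusters, 3 mainly of EL1 and 3 mainly of WTg, both states held at least 20 cells of a library. The clusters led by histone and mitotic genes, 93.1% cycling in WTg and 100% in EL1, were not among the 6. Nor was the EL1 cluster led by Atp4b, 88.3% cycling, so the ratios within clusters leave out these cells. Ccne1 was higher in cycling cells in 6 of 6, with log2 ratios from 2.38 to 4.99, and E2f1 in 6 of 6, from 0.79 to 1.60. For E2f2 5 of 6 were above 0 and the exception, a WTg cluster led by the acinar gene Ctrl, had -0.86 (-3.44 to 1.27) on 3 and 7 UMIs. Cdkn2a was above 0 in 6 of 6, from 0.01 to 0.66, with 5 intervals above 0. Cdkn2c lost its difference within clusters, with ratios from -0.20 to 0.11, 1 of 6 above 0, and an interval that held 0 in all 6. Cdkn1b was above 0 in 3 of 6. Of the pocket proteins, Rb1 was above 0 in 6 of 6, from 0.03 to 0.84 with 4 intervals above 0, and Rbl1 in 6 of 6, from 0.11 to 1.41 with 2 such intervals. Rbl2 lay between -0.17 and 0.18, and its interval held 0 in all 6 clusters.

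Cdkn2c levels differed between tumor clusters. An EL1 cluster of 77 cells, 88.3% of them cycling and led by the gastric proton pump gene Atp4b and kallikrein genes, had Cdkn2c at 317 CPM (299 to 337) and Cdkn1b at 84.6 CPM (75.0 to 95). A WTg cluster of 87 cells, 93.1% cycling and led by histone and mitotic genes, had Cdkn2c at 203 CPM (190 to 215) and Cdkn1b at 52.5 CPM (46.3 to 59.2). Its EL1 counterpart by leading genes, 70 cells that were all cycling, had Cdkn2c at 149 CPM (137 to 163), Ccne1 at 40.9 CPM (34.6 to 48.0) and Rbl1 at 39.5 CPM (33.3 to 46.5). A high level was also read in the shallow EL1 cluster led by Reg2, where 27 cells, 33.3% of them cycling, held 38 Cdkn2c UMIs, or 214 CPM (151 to 294). Over the 8 EL1 clusters of at least 20 cells, Cdkn2c ranged from 77.2 to 317 CPM with a median of 110 CPM. Over the 6 WTg clusters it ranged from 74.1 to 203 CPM with a median of 90.1 CPM. Without the pair of clusters led by histone and mitotic genes, a choice made after the data were seen, the Cdkn2c ratio of cycling over non-cycling cells was 0.45 in EL1 and -0.19 in WTg.

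**Figure D4:**
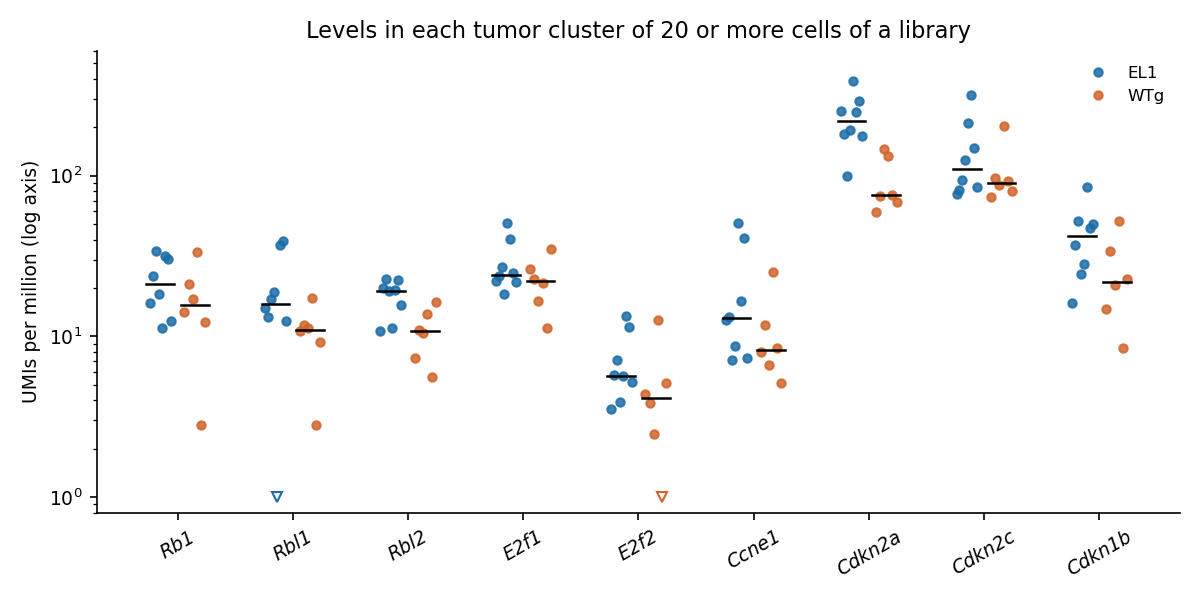
CPM (log axis) of 9 genes in each tumor cluster with at least 20 cells of a library, for EL1 (blue, 8 clusters) and WTg (orange, 6 clusters); black bars are medians over clusters and open triangles at the foot mark 0 UMIs. Ccnd1 is left out for want of UMIs. The medians of Cdkn2a are 221 CPM for EL1 and 75.4 CPM for WTg, and the ranges overlap.

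Last, the tumor cells of the libraries were set against each other, which compares 1 library with 1 library. Cdkn2a was lower in WTg, at 87.1 CPM against 231 CPM in EL1, a log2 ratio of -1.41 (-1.47 to -1.35). The ranges over clusters overlapped, from 99.5 to 388 CPM in EL1 and from 59.1 to 148 CPM in WTg. Most tumor clusters belonged to 1 library, so a cluster and a library can often not be told apart. Only 3 held at least 20 cells of each, and Cdkn2a was lower in WTg in all 3. The ratios there were -0.41 (-0.77 to -0.03) in the cluster led by Serpina1 genes, -1.36 (-1.79 to -0.94) in that led by Fos and other immediate early genes, and -2.36 (-3.06 to -1.70) in a shallow cluster led by Reg2. Rbl1 had a ratio of -0.73 (-0.92 to -0.55) and Rbl2 of -0.71 (-0.91 to -0.51). In the clusters led by Serpina1 genes and by Fos, which had over 3 UMIs in both libraries, Rbl1 was at -0.55 (-1.43 to 0.46) and -0.44 (-1.86 to 0.93). Rbl2 was at -1.05 (-1.83 to -0.17) and 0.07 (-1.04 to 1.19).

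The remaining genes differed less between the libraries. Ccne1 was at -0.43 (-0.63 to -0.23), Cdkn1b at -0.30 (-0.42 to -0.17) and Cdkn2c at -0.17 (-0.23 to -0.10). For Rb1, E2f1 and E2f2 the interval held 0, with ratios between -0.16 and -0.07. Ccnd1 was at -1.03 (-2.89 to 0.58) on 5 and 12 UMIs. All 10 values were below 0, but the median of all genes was too, at -0.19. Under scaling by the trimmed mean of M values or the median of gene ratios this median moved up by 0.19. Rb1, E2f1, E2f2 and Cdkn2c then turned to values between 0.02 and 0.12, and Cdkn2a stood at -1.22 under both. In counts 0 of 10 genes were at least 2-fold higher in WTg, against 7.08% of 15346 genes, and 2 of 10, Cdkn2a and Ccnd1, were lower, against 8.15%. Of the 3 lists, Ccnd2 was the single gene past 2-fold, at 1.45 (-0.68 to 4.04) on 7 and 3 UMIs.

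**Figure D5:**
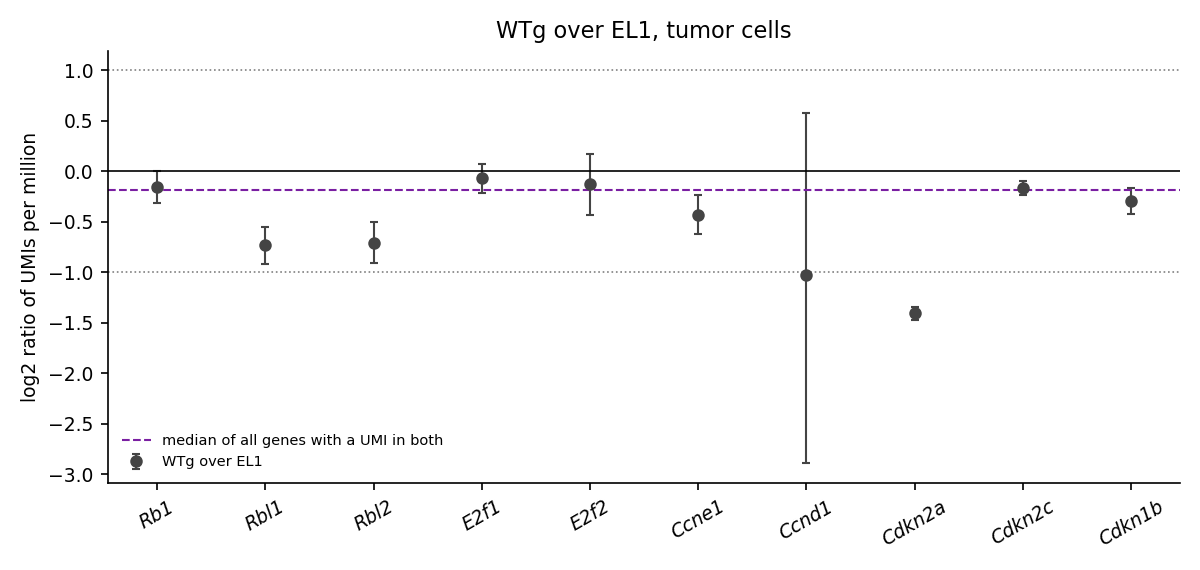
The log2 ratio of WTg over EL1 in tumor cells for each gene, with exact intervals of counting error; dotted lines mark 2-fold and the dashed line is the median of all genes, at -0.19. Cdkn2a, at -1.41, lies farthest from that line with a narrow interval.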

How the data were processed

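Pancreatic tumors were dissociated with collagenase D, red cells were lysed, and the cells were stained and passed through a sorter, whose gates are not given in the sources used here. The authors made 10x Chromium 3′ libraries and deposited raw UMI counts per gene and barcode from Cell Ranger 6.0.2, with GRCm38, R 4.1 and Seurat 4.0.5 in the submitters' processing notes. The deposited dense tables held the same counts for part of the barcodes (0 of the values compared differed) and were not used.

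The members and lists were chosen with earlier results of these data known. Kept cells were clustered with scanpy 1.11.5 (2000 variable genes, 30 components, 15 neighbors, Leiden resolution 1), and clusters were named from marker lists by thresholds set after the clusters were seen. Scrublet called 2 doublets in EL1 and 3 in WTg, which were kept. UMIs were summed over cells and given as CPM, with Poisson, conditional binomial and Clopper-Pearson intervals. A ratio needed at least 10 UMIs over both sums to be counted. A sum of 0 was set to 3 UMIs and counted in the direction of its bound only. All members were named, and at most 5 genes per list and comparison by the smaller absolute ratio of the libraries. Cdk4, Ccnd3 and Ccnd2 were named after their values were seen. The calculation was tested on simulated data. Alternatives were other filters, clusterings, doublet, state, scaling and weighting choices.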

Additional observations from a re-analysis of the deposited data

Results flagged for a closer look

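The sign of the tumor over macrophage-like log2 ratio differed between the libraries for 4 genes, and this difference was not tested. The share of all genes with such a change of sign is not given here, so the 4 are not set against a background. Rb1 was at 1.10 in EL1 and -1.29 in WTg, Rbl2 at 0.29 and -0.65, E2f1 at -0.11 and 1.36, and E2f2 at -0.78 and 0.44. In EL1 these rest on 3 to 8 macrophage-like UMIs per gene. With cells weighted equally Rb1 and E2f1 in EL1 were at -0.11 and 0.55, so their signs turned. The E2f2 value of WTg came to -0.00067 without the clusters led by histone and mitotic genes.

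Barcodes removed for over 20% mitochondrial UMIs, 393 in EL1 and 440 in WTg, also held UMIs of the genes above the limit that a count of 0 allows. Cdkn2a was at 69.1 CPM in EL1 and 22.7 CPM in WTg in them, below the 231 CPM and 87.1 CPM of tumor cells. Cdkn2c was at 34.5 CPM and 24.5 CPM, and Cdkn1b at 22.4 CPM and 17.4 CPM. Of the pocket proteins, Rb1 was at 14.9 CPM and 16.2 CPM, Rbl1 at 25.2 CPM and 12.6 CPM, and Rbl2 at 11.2 CPM and 7.78 CPM. E2f1 was at 9.34 CPM and 17.4 CPM, E2f2 at 4.67 CPM and 7.18 CPM, and Ccne1 at 12.1 CPM and 5.99 CPM.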

How the results depend on the processing

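No paired analysis was possible because EL1 and WTg are single libraries, so the spread between mice is unknown. Depth limits the macrophage-like class, where 3 UMIs are 9.92 CPM in EL1 and 3.90 CPM in WTg. Over all alternatives that gave a value, the tumor over macrophage-like ratio of Cdkn2a lay between 5.09 and 5.82 in EL1, and its bound in WTg lay between 4.33 and 5.61. Among ratios past 2-fold, the sign changed for 3 of 19, those of Rb1 in EL1, -0.18 with cells classed by their own markers and -0.11 with cells weighted equally, of Ccne1 in EL1, 0.13 with cells weighted equally, and of Ccnd1 in WTg over EL1, 4.22 with cells classed by their own markers. Of the 31 ratios short of 2-fold, 11 changed sign under at least 1 alternative. The cause was not tested. Counts of members under the alternatives are given without the share of all genes, so they are not set against a background. With cells weighted equally, 5 members were at least 2-fold higher and 1 lower in WTg tumor cells, in place of 3 and 2. In WTg over EL1, cells classed by markers gave 1 higher in place of 0. Cdkn2a alone, 1 gene in place of 2, was lower under stricter cell filters, Leiden resolution 0.5, classing by markers, both scalings, and without the clusters led by histone and mitotic genes. The cycling shares of EL1 and WTg were 48.5% and 47.2% with cells classed by markers, 37.7% and 42.7% with at least 2 UMIs, 28.7% and 33.2% after thinning to 5000 UMIs, 19.6% and 23.7% after thinning to 2000, and 49.3% and 51.7% without the histone clusters. Stricter cell filters gave 57.1% in EL1. Scaling by the trimmed mean of M values moved the median of all genes by 0.14 in tumor over macrophage-like cells of WTg and by -0.13 in cycling over non-cycling cells of WTg. Leaving out shallow or histone clusters was chosen after seeing the data. Stricter filters and Leiden resolution 2 left under 20 macrophage-like cells of EL1 and gave no value there.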

Other observations

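Lymphocytes, 10 cells of EL1 and 20 of WTg with T, NK or B cell markers, had 8 and 20 Cdkn1b UMIs, which is 115 CPM (49.7 to 227) for EL1 and 164 CPM (99.9 to 253) for WTg. Tumor cells held 32.4 CPM and 26.4 CPM. The 5 T or NK cells of EL1 held 4 of these UMIs, or 99.4 CPM (27.1 to 254), and the 12 of WTg held all 20, or 225 CPM (137 to 347). The 5 B cells of EL1 held the other 4, or 137 CPM (37.3 to 350), and the 8 B cells of WTg held 0, where 3 UMIs are 90.2 CPM. No UMI of Ccne1, E2f2 or Cdkn2c was found in these lymphocytes, where 3 UMIs are 43.2 CPM in EL1 and 24.5 CPM in WTg. Cdkn2a had 2 UMIs in those of EL1 and 0 in those of WTg.

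Across 16 values, the clusters of at least 20 cells by library, the gene whose log2 level was most like that of a member was Ncapd3, a condensin subunit, for E2f2 (Pearson r = 0.96). For Ccne1 it was the histone gene Hist1h3c (r = 0.90), for Cdkn2a Ppa2 (r = 0.93) and for Cdkn2c Cotl1 (r = 0.93). The points share libraries and depth, and each gene was the best of all genes above 10 CPM, so these are descriptions.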
